A study of Saccharomyces cerevisiae with 15 samples.

Results

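Transcript levels of 10 budding yeast genes for phosphate uptake, phosphate release and polyphosphate storage were followed in cells given human IRAK kinases, which act downstream of interleukin-1 and Toll-like receptors in immune cells. The genes, chosen by name and with earlier results of these data known, were PHO84, PHO89, PHO5, PHO3, PHO8, PHO81, SPL2, VTC1, VTC3 and VTC4. All 10 were among the 5449 yeast genes measured, each by 1 probe set. All cultures were strain YPH499 with the plasmid pEG(KG), known as a vector for fusions to glutathione S-transferase, in which the GAL1 promoter, switched on by galactose, drives the insert. The inserts were IRAK4, its catalytically inactive form IRAK4(KD), IRAK1 or IRAK2. The empty plasmid was the Control. Cells grown for 18 h in raffinose medium at 30 °C were moved to galactose medium at a starting optical density of 0.3, and were used 6 h later. Each of the 5 groups had 3 biological replicates with 1 Affymetrix array each, 15 arrays in all. The amount of the human proteins was not measured, and the comparisons are between strains that share the galactose shift.

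Phosphate supply in budding yeast is sensed by a pathway named PHO. When phosphate is short, the inhibitor Pho81 holds back the cyclin-dependent kinase Pho80-Pho85, a control in which inositol pyrophosphates take part. The transcription factor Pho4, with its partner Pho2, then enters the nucleus. It activates the genes for high-affinity carriers, secreted phosphatases and the polyphosphate polymerase of the vacuole. PHO84 and PHO5 are the classical readouts of Pho4. Some of the genes also answer to other signals: PHO89 is activated at alkaline pH through calcineurin and the kinase Snf1, and PHO3 is repressed by thiamine.

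Values are log2 intensities made by the authors with GCRMA, and differences are given in log2 units ± the standard error from limma. A gene was called, and is said to rise or fall, where limma gave a Benjamini-Hochberg adjusted p under 0.05 among the 5449 genes. The medians of the arrays lay between 8.72 and 8.87. Of the galactose genes listed as a check on induction, GAL1 and GAL10 were not called in any kinase group against Control (differences of -0.17 to 0.13). GAL7 rose in IRAK4 (0.33 ± 0.06, adjusted p = 0.00097), IRAK4(KD) (0.29 ± 0.06, adjusted p = 0.00789) and IRAK1 (0.25 ± 0.06, adjusted p = 0.00433). In IRAK2 GAL7 stood at -0.18 ± 0.06 (adjusted p = 0.0843), a fall that was called over 14 arrays (adjusted p = 0.0396). GAL1 read 13.14 to 13.495, close to the array maxima of 13.92 to 14.21, so small differences in induction may not show in it. The part of induction in the other results was not tested. Replicate arrays correlated across genes at 0.993 or more in every group but IRAK1, where the lowest correlation was 0.968 because replicate 1 stood apart. In 234 genes it was over 1 log2 unit away from what its fellow replicates averaged. PHO84 and PHO3 were among the genes in which it differed most: only 1 gene deviated more than PHO84 (-3.32) and only 6 more than PHO3 (-2.71). The fit uses 1 spread per gene for all groups, so that this array widens the error of PHO84 and PHO3 in every comparison. For the 10 genes, the value from the 14 arrays without it is therefore given wherever it changed a call against Control or between IRAK4 and IRAK4(KD).

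**Figure D1:**
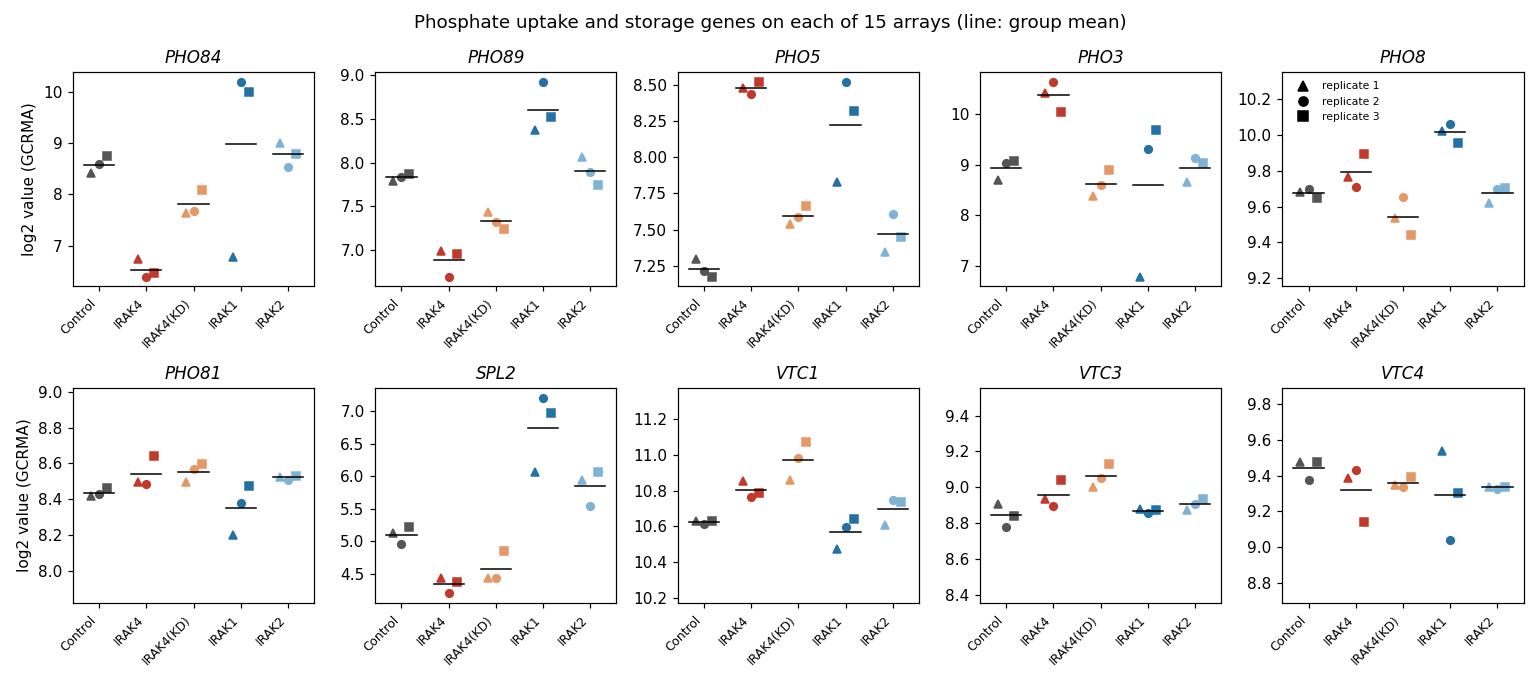
Log2 value (y axis, a scale of its own for each gene) of the 10 genes on each of the 15 arrays, by group (x axis), with a black line at the group mean and a marker shape for each replicate number. The PHO84 panel shows IRAK4 at 6.39 to 6.74, Control at 8.41 to 8.74, and IRAK1 replicate 1 (6.78) lay far below the other IRAK1 arrays (10.20 and 10.001).

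PHO84, the high-affinity proton-coupled phosphate carrier of the plasma membrane, was lowest on average with active IRAK4. It read 8.41, 8.59 and 8.74 in Control and 6.74, 6.39 and 6.46 in IRAK4. It read 7.65, 7.68 and 8.08 in IRAK4(KD). The IRAK4 arrays all lay below the IRAK4(KD) arrays, and these all lay below Control. In IRAK2 the values were 9.01, 8.54 and 8.80, which overlapped Control, and in IRAK1 they were 6.78, 10.20 and 10.001. IRAK1 thus held both the highest values of all groups and, in replicate 1, a value like those of IRAK4. PHO84 fell in IRAK4 by 2.05 ± 0.60, 4.15-fold (adjusted p = 0.0132), and by the same amount with an error of 0.14 over 14 arrays (adjusted p = 2.75e-08). The arrays measure RNA of whole cultures, so fewer cells with PHO84 transcript and less transcript per cell cannot be told apart. The difference of IRAK4(KD) from Control, -0.78 ± 0.60, was not called over 15 arrays (adjusted p = 0.382) and was called over 14 (-0.78 ± 0.14, adjusted p = 0.00114). In IRAK1 the difference from Control was 0.41 ± 0.60 (adjusted p = 0.573) over 15 arrays and 1.52 ± 0.16 (adjusted p = 1.22e-06) without replicate 1, while it was -0.19 without IRAK1 replicate 2 and -0.09 without IRAK1 replicate 3.

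PHO89, the sodium-coupled high-affinity carrier, showed the same order of groups with a narrower spread. It read 7.79, 7.84 and 7.87 in Control and 6.99, 6.70 and 6.95 in IRAK4. The values were 7.44, 7.31 and 7.24 in IRAK4(KD) and 8.37, 8.93 and 8.52 in IRAK1. In IRAK2 they were 8.06, 7.89 and 7.75. The arrays of IRAK4, IRAK4(KD), Control and IRAK1 formed 4 ranges that did not overlap, and IRAK2 overlapped Control. Against Control, PHO89 fell in IRAK4 by 0.95 ± 0.13 (adjusted p = 5.64e-05) and in IRAK4(KD) by 0.50 ± 0.13 (adjusted p = 0.0189). It rose in IRAK1 by 0.77 ± 0.13 (adjusted p = 0.000179), with replicate 1 on the same side of Control as the other IRAK1 arrays, and by 0.89 ± 0.13 over 14 arrays. For IRAK4(KD), leaving out Control replicate 2 (-0.50) or 3 (-0.48), or replicate 2 (-0.49) or 3 (-0.46) of IRAK4(KD) itself, ended the call.

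SPL2 encodes a small Pho4-induced protein that restrains the low-affinity carriers when phosphate is short. It read 5.13, 4.96 and 5.21 in Control and 4.43, 4.20 and 4.37 in IRAK4. In IRAK4(KD) it read 4.43, 4.43 and 4.85. It was higher in IRAK1, at 6.07, 7.21 and 6.97, and in IRAK2, at 5.94, 5.54 and 6.06. All arrays of IRAK1 and of IRAK2 lay above Control, and all arrays of IRAK4 and of IRAK4(KD) below it. The 5th percentile of the arrays was 4.97 to 5.45, so that Control, IRAK4 and IRAK4(KD) lay near the low end of the scale, where the size of a difference is uncertain. SPL2 rose in IRAK1 by 1.65 ± 0.23, 3.13-fold (adjusted p = 3.11e-05), and by 1.99 ± 0.16 over 14 arrays. It fell in IRAK4 by 0.77 ± 0.23 (adjusted p = 0.0143), a call that ended without Control replicate 3 (-0.71). The differences in IRAK2 (0.74 ± 0.23, adjusted p = 0.0554) and IRAK4(KD) (-0.53 ± 0.23, adjusted p = 0.119) were not called over 15 arrays and were called over 14, at 0.74 ± 0.14 (adjusted p = 0.0023) and -0.53 ± 0.14 (adjusted p = 0.0106). The other regulator, PHO81, which encodes the inhibitor of Pho80-Pho85 and is itself a Pho4 target, stayed between 8.20 and 8.64 on all arrays. Its group means spanned 0.20, and it was not called against Control in any group, the differences being -0.09 to 0.12.

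The acid phosphatases moved the other way in IRAK4. PHO5, the secreted acid phosphatase induced at low phosphate, read 7.29, 7.21 and 7.17 in Control and 8.48, 8.44 and 8.52 in IRAK4. It read 7.54, 7.59 and 7.66 in IRAK4(KD), 7.83, 8.53 and 8.32 in IRAK1 and 7.34, 7.61 and 7.45 in IRAK2. Every array with a human kinase lay above every Control array. PHO5 rose in IRAK4 by 1.26 ± 0.13, 2.39-fold (adjusted p = 5.78e-06), and in IRAK1 by 1.00 ± 0.13 (adjusted p = 2.27e-05). The differences in IRAK4(KD) (0.37 ± 0.13, adjusted p = 0.0678) and IRAK2 (0.24 ± 0.13, adjusted p = 0.282) were called only over 14 arrays (adjusted p = 0.00333 and 0.0434) and under some of the other alternatives.

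PHO3, the acid phosphatase expressed at high phosphate, lies next to PHO5 in the RefSeq gene table of assembly R64 and is its close relative. It read 8.701, 9.04 and 9.07 in Control and 10.42, 10.65 and 10.05 in IRAK4. It read 8.39, 8.61 and 8.89 in IRAK4(KD), 6.79, 9.32 and 9.68 in IRAK1 and 8.66, 9.14 and 9.04 in IRAK2. IRAK4 stood above all other groups without overlap, and IRAK1 replicate 1 gave the lowest value of the 15. PHO3 rose in IRAK4 by 1.44 ± 0.51 (adjusted p = 0.0331), a call that ended without Control replicate 1 (1.32), 2 (1.49) or 3 (1.504) and without IRAK4 replicate 1 (1.41) or 2 (1.30). Over 14 arrays the error was 0.17 (adjusted p = 8.22e-06). In IRAK1 the difference was -0.34 ± 0.51 (adjusted p = 0.58) over 15 arrays and turned to 0.56 ± 0.19 (adjusted p = 0.0201) without replicate 1. Hybridisation of PHO5 transcript to the PHO3 probe set, or the reverse, was not tested. Against its fellow replicates, IRAK1 replicate 1 was 2.71 lower in PHO3 and 0.60 lower in PHO5.

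PHO8, the alkaline phosphatase of the vacuole, changed little. It read 9.65 to 9.70 in Control, 9.71 to 9.89 in IRAK4 and 9.44 to 9.65 in IRAK4(KD). In IRAK2 it read 9.62 to 9.71. In IRAK1 it read 9.96 to 10.06, above all other arrays, and rose there by 0.34 ± 0.08 (adjusted p = 0.00162). Replicate 1 of IRAK1 was not apart in this gene, at 0.01 from the mean of the others.

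The genes of the vacuolar transporter chaperone (VTC) complex, which makes polyphosphate and moves it into the vacuole, were nearly flat. VTC1, a small membrane subunit, read 10.61 to 10.63 in Control and 10.86 to 11.07 in IRAK4(KD), where it rose by 0.35 ± 0.08 (adjusted p = 0.00876). VTC3, a regulatory subunit, read 8.78 to 8.91 in Control and 9.003 to 9.13 in IRAK4(KD), a rise of 0.22 ± 0.07 (adjusted p = 0.0428). That call ended with each array centred on its median (0.18), after quantile normalization (0.17) and with the replicate number as a block (0.22). It was further lost with each removal of a Control, IRAK4, IRAK4(KD) or IRAK2 array except Control replicate 1 and IRAK4 replicates 2 and 3 (0.18 to 0.25). VTC4, the catalytic polymerase, read 9.04 to 9.54 over all arrays, its group means spanned 0.15, and over 15 arrays it was not called in any comparison of 2 groups. Without IRAK1 replicate 1 its means spanned 0.27, and it was called lower in IRAK1 than in Control (-0.27 ± 0.09). In the limma F test over the 5 groups 7 of the 10 genes passed at an adjusted p under 0.05, against 81.3% of all genes. The exceptions were PHO81 (adjusted p = 0.119), VTC3 (adjusted p = 0.0598) and VTC4 (adjusted p = 0.714). Without IRAK1 replicate 1, 8 passed, VTC3 among them (adjusted p = 0.0436), against 86.6% of all genes.

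**Figure D2:**
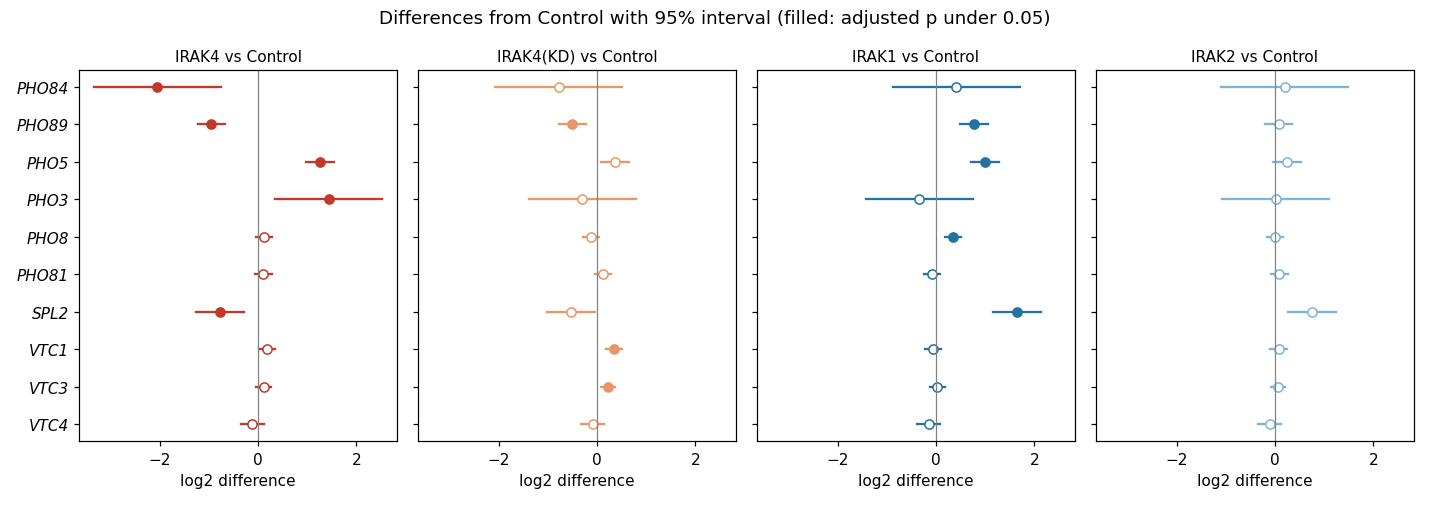
Log2 differences of the 10 genes from Control (x axis) in the 4 kinase groups, with 95% intervals from limma over 15 arrays and filled points for adjusted p under 0.05. In IRAK4, PHO84 (-2.05), PHO89 (-0.95) and SPL2 (-0.77) lay below 0 while PHO5 (1.26) and PHO3 (1.44) lay above it, and the intervals of PHO84 and PHO3 were the widest in every group.

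The comparison of IRAK4 with Control addresses the response to the active kinase. The high-affinity carriers PHO84 and PHO89 and the regulator SPL2 fell and the acid phosphatases PHO5 and PHO3 rose. PHO84 and PHO5, the classical readouts of Pho4, thus moved in opposite directions. The activity of Pho4 was not tested. In all, 2 of the 10 genes rose and 3 fell, 5 of 10, where 44.6% of all genes were called, 28.2% higher and 16.4% lower. That number is close to the background and by itself sets the 10 genes apart in nothing. Of the 10, 3 (PHO84, PHO5 and PHO3) were called with a change of at least 1 log2 unit, against 5.21% of all genes. Because the 10 genes were chosen with earlier results of these data known, that contrast is a description and not a test. The IRAK4 and Control arrays did not overlap in 8 of the 10, against 61.7% of all genes, and the median difference was 0.11 in the 10 genes and 0.08 in all genes. Without Control replicate 3, 3 of the 10 were called, where 33.7% of all genes were called. Without IRAK1 replicate 1 the number was 6, with VTC1 added (0.18 ± 0.07), where 55.8% of all genes were called.

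The inactive kinase IRAK4(KD) against Control showed smaller differences than IRAK4 in PHO84, PHO89, SPL2, PHO5, PHO3 and VTC4. The differences were larger in size in VTC1 (0.35, and 0.18 in IRAK4) and VTC3 (0.22, and 0.11 in IRAK4). They were slightly larger in PHO8 (-0.13, and 0.12 in IRAK4) and PHO81 (0.12, and 0.10 in IRAK4). PHO89 fell, VTC1 and VTC3 rose, and PHO84 and SPL2 lay below Control on every array without a call over 15 arrays. These 3 called genes of 10 compare with 17.7% of all genes (11.7% higher and 6% lower), and the median difference was -0.11 in the 10 genes and 0.07 in all genes. The number was 1 when replicate 2 or 3 of either group was left out, where 5.96% to 12.3% of all genes were called. It was 6 over 14 arrays, when PHO84 and SPL2 fell and PHO5 rose as well (34.1% of all genes called).

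The direct comparison of IRAK4 with IRAK4(KD), which differ in catalytic activity, showed the phosphatases higher with the active kinase. PHO3 was 1.74 ± 0.51 higher in IRAK4 (adjusted p = 0.0158), PHO5 0.89 ± 0.13 (adjusted p = 0.000173) and PHO8 0.25 ± 0.08 (adjusted p = 0.0212). PHO89 was lower in IRAK4 (-0.45 ± 0.13, adjusted p = 0.0154). PHO84 differed by -1.27 ± 0.60 (adjusted p = 0.117), and by -1.27 ± 0.14 (adjusted p = 5.29e-06) over 14 arrays. SPL2 differed by -0.24 ± 0.23 (adjusted p = 0.446), with a 95% interval of -0.73 to 0.25. The VTC genes and PHO81 were not called, with differences of -0.17 to -0.01. These 4 called genes of 10 stand against 34.9% of all genes (19.7% higher and 15.3% lower), and over 14 arrays 5 stand against 46.8%. The calls of PHO89 and PHO3 ended without IRAK4 replicate 2 (-0.36 and 1.61) or IRAK4(KD) replicate 1 (-0.40 and 1.62). That of PHO8 ended without IRAK4 replicate 3 (0.19), IRAK4(KD) replicate 1 (0.24) or 3 (0.20) and from the 6 arrays alone (0.25).

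IRAK1 against Control had rises and no falls over 15 arrays: SPL2, PHO5, PHO89 and PHO8 rose. PHO89 and SPL2, which fell in IRAK4, were thus called on the same side of Control as PHO5, while PHO84 was not called over 15 arrays (0.41 ± 0.60). Tested directly against IRAK4, PHO89 was 1.72 ± 0.13 higher in IRAK1 (adjusted p = 1.22e-07), SPL2 2.42 ± 0.23 higher (adjusted p = 1.13e-06) and PHO84 2.46 ± 0.60 higher (adjusted p = 0.00414). PHO5 differed by -0.26 ± 0.13 between them (adjusted p = 0.132), with a 95% interval of -0.54 to 0.03. The other phosphatases were called, PHO3 at -1.78 and PHO8 at 0.22, and so was VTC1 at -0.23. Over 15 arrays 4 of the 10 were higher in IRAK1 than in IRAK4 and 2 lower, where 46.3% of all genes were called. Over 14 arrays 4 were higher and 1 lower, where 53.6% of all genes were called. Without IRAK1 replicate 1 the differences between IRAK1 and IRAK4 were 1.84 ± 0.13 in PHO89, 2.75 ± 0.16 in SPL2, 3.57 ± 0.16 in PHO84 and -0.06 ± 0.09 in PHO5 (adjusted p = 0.61). They were -0.87 ± 0.19 in PHO3 (adjusted p = 0.00148), 0.22 ± 0.08 in PHO8 (adjusted p = 0.033) and -0.18 ± 0.08 in VTC1 (adjusted p = 0.0575). Against Control the 4 called genes of 10 are to be read against 58.7% of all genes, 30.6% higher and 28.2% lower. Without IRAK1 replicate 1, 7 of 10 were called, 6 higher, with PHO84 (1.52) and PHO3 (0.56) added, and 1 lower, VTC4 (-0.27 ± 0.09, adjusted p = 0.0219), against 60.9% of all genes.

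IRAK2 against Control gave 0 called genes of 10 by limma, where 9.19% of all genes were called (5.82% higher and 3.38% lower), and 1 gene, SPL2, at an unadjusted p under 0.05, where 25.9% of all genes were. The differences ran from -0.11 (VTC4) to 0.74 (SPL2). With limma's array weights 3 were called, against 47.6% of all genes, and from the 6 arrays alone 1 (SPL2), against 25.8%. Over 14 arrays 2 were called (SPL2 and PHO5), against 21.7%. Without IRAK1 replicate 2, SPL2 alone was called (0.74), against 9.8% of all genes. For PHO84 the difference was 0.20 ± 0.60 over 15 arrays (95% interval -1.09 to 1.49) and 0.20 ± 0.14 over 14 (adjusted p = 0.342), the wider error coming with IRAK1 replicate 1, which is in neither group.

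**Figure D3:**
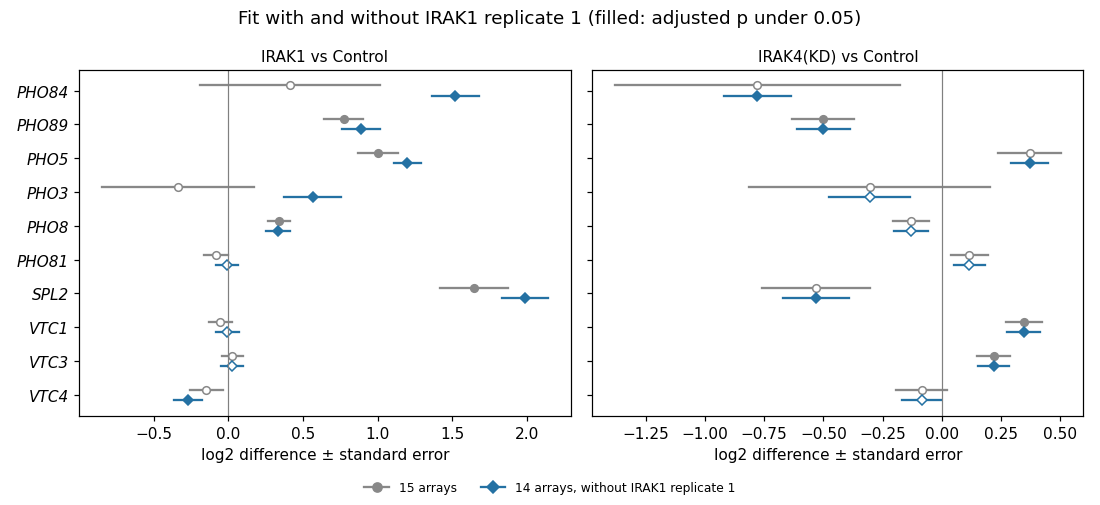
Log2 differences ± standard error (x axis) of the 10 genes in IRAK1 and in IRAK4(KD) against Control, from all 15 arrays (grey circles) and from the 14 arrays without IRAK1 replicate 1 (blue diamonds), filled where the adjusted p was under 0.05. In IRAK1, PHO84 moved from 0.41 to 1.52 and PHO3 from -0.34 to 0.56, and in IRAK4(KD) the values stayed while the standard error of PHO84 went from 0.60 to 0.14.

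The order of the group means, from low to high, was IRAK4, IRAK4(KD), Control, IRAK2 and IRAK1 for PHO84, PHO89 and SPL2, and it was the same over 14 arrays. In PHO84 no neighbours in that order were called different over 15 arrays. Over 14 arrays the steps from IRAK4 to IRAK4(KD) (adjusted p = 5.29e-06), from IRAK4(KD) to Control (adjusted p = 0.00114) and from IRAK2 to IRAK1 (1.32 on the log2 scale, adjusted p = 4.81e-06, where 61.1% of all genes were called) were called, and that from Control to IRAK2 was not (adjusted p = 0.342). In PHO89 the neighbours Control and IRAK2 (7.83 and 7.90) were not called different and the other neighbours were. In SPL2 only the step from IRAK2 (5.84) to IRAK1 (6.75) was called between neighbours (adjusted p = 0.00361, where 59.8% of all genes were called between these groups). Over 14 arrays the steps of SPL2 from IRAK4(KD) to Control (adjusted p = 0.0106) and from Control to IRAK2 (adjusted p = 0.0023) were called as well. For PHO5 the order was Control, IRAK2, IRAK4(KD), IRAK1 and IRAK4, and only the step from IRAK4(KD) (7.60) to IRAK1 (8.23) was called (adjusted p = 0.00109, 57.4% of all genes, and 60.7% over 14 arrays). Over 14 arrays that from Control to IRAK2 was called too (adjusted p = 0.0434). For PHO3 the order was IRAK1, IRAK4(KD), Control, IRAK2 and IRAK4 over 15 arrays, and only the step from IRAK2 (8.95) to IRAK4 (10.37) was called (adjusted p = 0.0299, 50.8% of all genes). Over 14 arrays IRAK1 (9.499) moved to between IRAK2 and IRAK4, and both the step from IRAK2 to IRAK1 (adjusted p = 0.0225) and that from IRAK1 to IRAK4 (adjusted p = 0.00148) were called. In PHO8 only that from IRAK4 (9.79) to IRAK1 (10.02) was called (adjusted p = 0.0263, 46.3% of all genes). No neighbours were called different in PHO81, VTC1, VTC3 or VTC4, although VTC1 differed between groups farther apart in its order (IRAK1 against IRAK4(KD), -0.40 ± 0.08, adjusted p = 0.00048). PHO81 (-0.20) and VTC3 (-0.19) were called in that comparison too, where 57.4% of all genes were called. Over 14 arrays VTC3 was still called there (adjusted p = 0.0302) and PHO81 was not (adjusted p = 0.141).

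A further 26 genes of the pathway were listed by role from general knowledge, of which 22 were measured, and PHO12, PHO88, VTC5 and PPN2 were not analysed here. Against Control 9 of the 22 rose and 3 fell in IRAK4, 2 rose and 1 fell in IRAK4(KD), 6 rose and 2 fell in IRAK1, and 1 rose and 1 fell in IRAK2. Between IRAK4 and IRAK4(KD) 8 were higher in IRAK4 and 2 lower. These counts stand against the same shares of all genes called as above, 44.6%, 17.7%, 58.7%, 9.19% and 34.9%. Leaving out each array in turn gave 1 to 7 called genes in IRAK4(KD) and 0 to 6 in IRAK2, in place of 3 and 2. The 1 in IRAK4(KD), without Control replicate 3, came with 5.96% of all genes called. The 0 in IRAK2 came with 4.07% (without Control replicate 3) and 2.68% (without IRAK2 replicate 3). The highest number came without IRAK1 replicate 1. Over those 14 arrays 11 of the 22 rose and 4 fell in IRAK4, 5 and 2 in IRAK4(KD), 6 and 2 in IRAK1, and 5 and 1 in IRAK2. In IRAK4 9 were higher and 3 lower than in IRAK4(KD). The shares of all genes called over 14 arrays were, in that order, 55.8%, 34.1%, 60.9%, 21.7% and 46.8%.

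Among the other phosphatases and phosphodiesterases all 3 measured genes rose in IRAK4, where 28.2% of all genes were called higher. PHM8, a phosphatase of lysophosphatidate and nucleotides induced at low phosphate, read 5.70, 5.79 and 5.64 in Control and 7.45, 7.22 and 7.42 in IRAK4. In IRAK1 it read 5.74, 7.23 and 7.26. IRAK4 lay wholly above Control, and of the IRAK1 arrays only replicate 1 was within the Control range. PHM8 rose by 1.65 ± 0.28 in IRAK4 (adjusted p = 0.000291) and by 1.04 ± 0.28 in IRAK1 (adjusted p = 0.00531), a call that ended from the 6 arrays alone, and the IRAK1 difference was 1.54 without replicate 1. The difference in IRAK4(KD) was -0.02 ± 0.28, and PHM8 was 1.67 ± 0.28 higher in IRAK4 than in IRAK4(KD) (adjusted p = 0.000371). PHO11, an acid phosphatase related to PHO5, rose by 0.71 ± 0.13 in IRAK4 and by 0.54 ± 0.13 in IRAK4(KD). Its probe set carries the suffix for sets that may match several transcripts, and PHO12 is a near-identical copy, so the 2 genes cannot be told apart here. GDE1, which splits glycerophosphocholine, rose by 0.39 ± 0.11 in IRAK4 and 0.73 ± 0.11 in IRAK1. It was 0.41 ± 0.11 higher in IRAK4 than in IRAK4(KD), a call that ended without IRAK4 replicate 3 (0.31) or IRAK4(KD) replicate 3 (0.36).

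Of the other carriers, GIT1, the permease for glycerophosphoinositol, rose in IRAK1 by 0.97 ± 0.13 (adjusted p = 3.09e-05), from 4.16 to 4.44 in Control to 5.22 to 5.44, near the low end of the arrays. PHO90, a low-affinity phosphate carrier, fell by 0.33 ± 0.09 in IRAK4 and by 0.31 ± 0.09 in IRAK4(KD). Leaving out Control replicate 3 ended the call in IRAK4 (-0.26). The call in IRAK4(KD) was lost on removal of Control replicate 2 (-0.32) or 3 (-0.24) or of any IRAK4(KD) array (-0.34 to -0.27). PHO87, the other low-affinity carrier, was not called in these comparisons over 15 arrays, and over 14 its difference in IRAK4(KD), 0.21 ± 0.07, was (adjusted p = 0.0289). PHO91, a phosphate carrier of the vacuole membrane, rose by 0.52 ± 0.10 in IRAK4 and was 0.46 ± 0.10 higher there than in IRAK4(KD). SYG1, a gene related to phosphate exporters, stood at -0.40 ± 0.17 in IRAK1 with a bare call (adjusted p = 0.0492) and overlapping arrays. That call ended with the replicate block (adjusted p = 0.0517) and without any array other than IRAK1 replicates 2 and 3, and the difference was -0.12 without IRAK1 replicate 1.

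Among the other regulators, PHO85, the kinase subunit, rose by 0.49 ± 0.10 in IRAK4 and PHO2, the partner of Pho4, by 0.58 ± 0.14. PHO85 was 0.45 ± 0.10 higher in IRAK4 than in IRAK4(KD), and PHO80, the cyclin, differed by -0.32 ± 0.10, a call lost without IRAK4 replicate 1 (-0.31) or 2 (-0.26) or IRAK4(KD) replicate 1 (-0.32) or 3 (-0.27). PHO2 also rose in IRAK1 (0.45 ± 0.14), a call that ended without IRAK1 replicate 1 (0.29). Against Control PHO80 rose in IRAK4(KD) by 0.44 ± 0.10, a call that ended without Control replicate 3 (0.39). PHO92, a reader of methylated RNA that lowers PHO4 transcript, rose in IRAK1 by 1.75 ± 0.41 (adjusted p = 0.00211). It read 3.78, 6.27 and 5.67 there and 3.48 to 3.51 in Control, so that replicate 1 lay just above Control and the others far above it. Control was at the bottom of the scale, and the difference was 2.48 ± 0.14 over 14 arrays. In IRAK2, PHO4 itself stood at -0.32 ± 0.08 (adjusted p = 0.0216) and PHM6, a Pho4 target of unknown function, at 0.48 ± 0.11 (adjusted p = 0.0157). PHM6 read only 3.89 to 4.19 in Control and 4.47 to 4.55 in IRAK2, below the 5th percentile of the arrays, and is not tested when genes with a mean under 5 are left out. PHO4 and PHM6 were the 2 calls of IRAK2 in the 22 genes over 15 arrays, and both could be lost by leaving out 1 array. That of PHO4 ended without Control replicate 2 (-0.27) or 3 (-0.31) or IRAK2 replicate 1 (-0.26) or 3 (-0.34), and that of PHM6 without Control replicate 1 (0.42) or 3 (0.46) or IRAK2 replicate 2 (0.46) or 3 (0.50).

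For polyphosphate breakdown and inositol pyrophosphates the differences were small. PPX1, the cytosolic exopolyphosphatase, fell in IRAK1 by 0.65 ± 0.10 (adjusted p = 9.4e-05), reading 8.26 to 8.60 there and 8.99 to 9.11 in Control. VIP1, a kinase that makes inositol pyrophosphates, rose by 0.43 ± 0.09 in IRAK4, and KCS1, the other such kinase, fell by 0.32 ± 0.09. DDP1, a phosphohydrolase for these compounds, rose by 0.44 ± 0.09 in IRAK1. In IRAK4 against Control PPX1 stood at -0.32 ± 0.10 and PPN1, another polyphosphatase, at 0.26 ± 0.08. The call of PPX1 was lost without Control replicate 2 (-0.31) or 3 (-0.29) or IRAK4 replicate 2 (-0.24), and that of PPN1 with median centring (0.19) and without Control replicate 1 or 2 (0.25 each) or IRAK4 replicate 1 (0.22) or 2 (0.25). Against IRAK4(KD), VIP1 was 0.44 ± 0.09 higher in IRAK4. There DDP1 stood at 0.26 ± 0.09, PPN1 at 0.26 ± 0.08 and VTC2, a further VTC subunit gene, at -0.40 ± 0.12. Each of these 3 calls was lost without IRAK4 replicate 1 (0.26, 0.23 and -0.37), and those of DDP1 and PPN1 also on other removals.

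**Figure D4:**
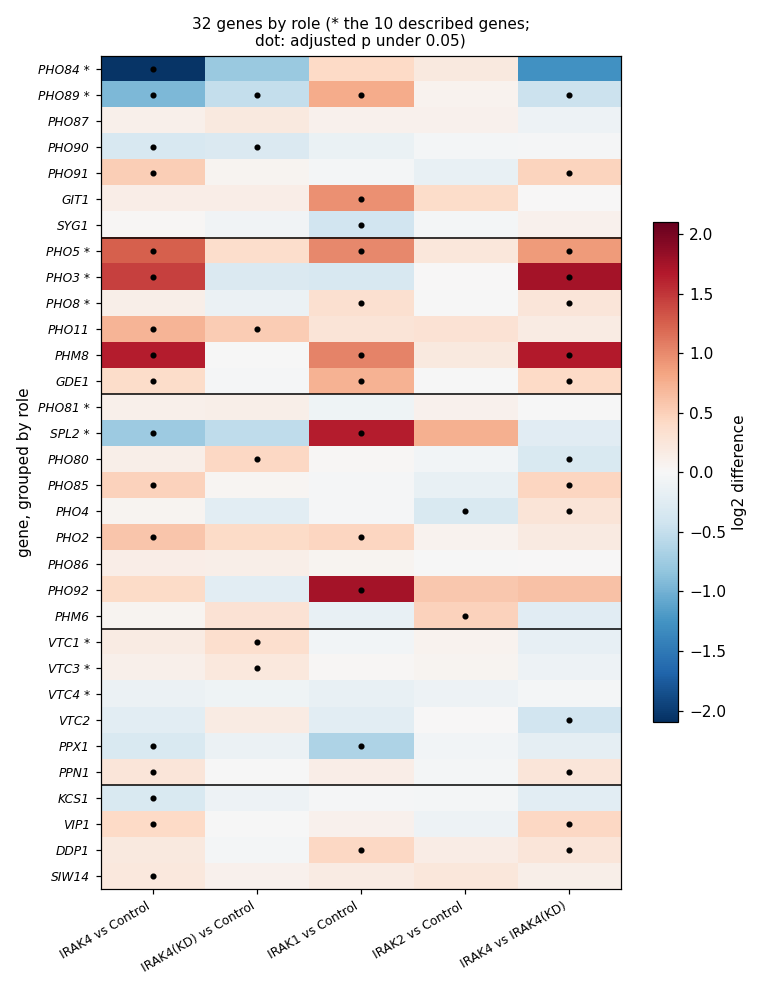
Log2 differences (colour, red for higher in the first group named) of 32 genes of phosphate metabolism in 5 comparisons, grouped by role with black lines (carriers, phosphatases, regulators, polyphosphate enzymes and inositol pyrophosphate enzymes from top to bottom), with a star for the 10 genes described first and a dot for adjusted p under 0.05. In IRAK4 against Control PHM8 (1.65), PHO3 (1.44) and PHO5 (1.26) were red and PHO84 (-2.05) and PHO89 (-0.95) blue, and in IRAK1 SPL2 (1.65) and PHO92 (1.75) had the strongest red.

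The genes whose 5 group means, each centred on its own mean, lay closest to those of the more variable members were also sought among all genes, as a description. For PHO84 they were PDH1, a methylcitrate cycle gene, HXT4, a glucose transporter gene, and CSM4, a meiotic gene, with root mean square differences of 0.17, 0.21 and 0.22. PHO89 ranked 13 (0.43) and SPL2 39 (0.52) by that measure. Without IRAK1 replicate 1 the nearest to PHO84 were PXA1 (0.27), which encodes a peroxisomal fatty acid importer, YIG1 (0.29) and REG2 (0.30). SPL2 ranked 18 (0.43) and PHO89 34 (0.57). For PHO89 they were ATG41 (0.12), YAT2 (0.14), a carnitine acetyltransferase gene, and BNS1 (0.15), and BNS1 and ATG41 stayed among the nearest 3 over 14 arrays. For SPL2 they were HXT9 (0.22), BNS1 (0.23) and SRL4 (0.26), of which HXT9 stayed. HXT9 has a near-identical copy, HXT11, and the probe sets of both may read both transcripts. For PHO5 they were RTR1 (0.05), MGA1 (0.09) and YJL070C (0.10), and RTR1 and MGA1 stayed. For PHO3 they were LDS2 (0.16), PLM2 (0.16) and AQY1 (0.21), a water channel gene, of which AQY1 stayed. No PHO or VTC gene was among the 3 nearest to any of these members. Over 15 arrays SPL2 ranked 139 and PHO84 279 from PHO89, and PHO89 ranked 15 and PHO84 84 from SPL2. The measure takes in the size of the differences, so genes with the same order of groups but another spread can rank far apart.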

How the data were processed

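Total RNA was hybridised to Affymetrix yeast arrays, and the log2 values deposited by the authors were made with GCRMA, per the submitters' processing notes, with no version given. No detection calls were used. Of 5716 probe sets 5498 were paired with 1 gene by the platform annotation, 12 symbols were updated through RefSeq (R64), and for 47 genes with several sets the one with the highest mean was kept, leaving 5449 genes. Group means of all 15 arrays were fitted with limma 3.58.1 in R 4.3.3 (eBayes, two-sided, Benjamini-Hochberg over all genes within each of 10 pairs of groups), with no filter. On simulated data for 5449 genes, limma recovered 97% of 66 changes of 1 log2 unit in IRAK4 against Control, and 3.8% of calls were false. The false share passed 5% for IRAK2 (5.68%) and for the inactive kinase (5.26%) against Control. It was 3.17% for IRAK1 against Control and 3.89% between active and inactive IRAK4. The 97% does not carry over to genes with a wide error: PHO84, at -1.27 between IRAK4 and IRAK4(KD), was not called over 15 arrays. The members and lists were chosen with earlier results of these data known. Named genes were the 10 members, up to 2 called genes per role in the other pathway genes with the largest difference (PHO87, and GDE1 in IRAK4, were named after their values were seen, to complete a pair or role), and the 3 nearest patterns where group means spanned at least 1. Whether the labels' replicate numbers pair arrays was checked by correlating same-numbered deviations over all genes: IRAK1 with Control gave 0.191, 0.104 and 0.347, all over 0.1, although nothing in the labels says what a number stands for, and in the other comparisons not all pairs passed. Alternatives were other scalings, a low-value filter, the mean of probe sets, eBayes settings, array weights, 6 arrays alone, a replicate block and each array left out. The 14-array levels, and the block applied to IRAK1 and Control alone, were chosen after seeing the data. So was the use of the 14-array fit beside the main one. Figures used Python 3.11.15 and matplotlib 3.10.9.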

Additional observations from a re-analysis of the deposited data

How the results depend on the processing

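Of 1160 alternative values for the 10 genes in 5 comparisons, 1079 kept direction and side of the threshold, 30 lost a call, 29 gained one and 22 changed sign. The number called in IRAK4(KD) against Control went from 3 to 8 with array weights (49.2% of all genes called) and 6 from the 6 arrays alone (31.7%), and that in IRAK2 against Control from 0 to 3 (47.6%) and 1 (25.8%). The array weight fit stopped before its convergence tolerance was met. Leaving out each array in turn gave 3 to 6 called genes for IRAK4, 1 to 6 for IRAK4(KD), 4 to 7 for IRAK1 and 0 to 2 for IRAK2 against Control, and 1 to 5 for IRAK4 against IRAK4(KD). Without IRAK1 replicate 1, which gave the highest of these numbers, 55.8%, 34.1%, 60.9%, 21.7% and 46.8% of all genes were called. The lowest numbers came with 33.7% in IRAK4, 5.96% to 12.3% in IRAK4(KD) and 29.4% in IRAK4 against IRAK4(KD). Both scalings left 1 higher and 1 lower in IRAK4(KD), in place of 2 and 1, with 16.6% of all genes called after quantile normalization. The cause was not tested. With the replicate block 5, 2, 4 and 0 genes were called in IRAK4, IRAK4(KD), IRAK1 and IRAK2 against Control, and 4 between IRAK4 and IRAK4(KD). The shares of all genes called with the block are not given here, so these numbers are not results about the 10 genes. In IRAK1, where same-numbered deviations correlated at over 0.1 in each replicate, the same 4 stayed, also from its 6 arrays alone. Whether equal numbers mark paired cultures is not known from the labels.

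Signs changed mostly near 0. In IRAK1 against Control VTC3 was at -0.0052 with median centring and -0.000772 after quantile normalization, and PHO3 at 0.33 with array weights. In IRAK2 against Control PHO3 was at -0.00216 and -0.0062 under the 2 scalings and PHO8 at 0.0017 after quantile normalization. In IRAK4 against IRAK4(KD) VTC4 was at 0.023 with array weights. Leaving out arrays gave -0.19 to 1.52 for PHO84, -0.88 to 0.56 for PHO3 and -0.0051 to 0.0602 for VTC3 in IRAK1. It gave -0.11 to 0.15 for PHO3, -0.016 to 0.027 for PHO8 and -0.011 to 0.15 for PHO89 in IRAK2, and -0.065 to 0.015 for PHO81 and -0.094 to 0.0504 for VTC4 in IRAK4 against IRAK4(KD). The low values of SPL2, GIT1, PHO92 and PHM6 limit the size of their differences.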
